A study of Mus musculus with 23 samples.

Results

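Nkx1-2, Olig1, Olig2, Gbx2 and Nt5e were described across 23 microarrays of cultured mouse cells that resemble the epiblast on the eve of gastrulation (epiblast-like cells). They are 5 of the 18194 genes that single-gene probe sets name on the array, and 9 of its 45101 probe sets measure them. The genes were chosen by their signal without added cytokine, as genes that come up late in cells with intact Wnt3 and not in cells without it. The values of the untreated arrays are therefore a description and carry no test, and so is any difference from them. Tests were kept to the 15 arrays of cytokine-treated cells, which the rule does not name, although earlier results of all arrays were known when the genes were picked.

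Nkx1-2 is a homeobox transcription factor of the caudal epiblast and of the tissue that forms the spinal cord. Gbx2 is a homeobox transcription factor that sets the border between midbrain and hindbrain opposite Otx2, and in naive embryonic stem cells it is a target of LIF signalling. Olig1 and Olig2 are basic helix-loop-helix factors, best known from the oligodendrocyte lineage and, for Olig2, from motor neuron progenitors. Nt5e encodes CD73, an enzyme at the cell surface that splits adenosine monophosphate to adenosine. WNT3 is a ligand of canonical WNT signalling that the epiblast needs to begin gastrulation, and WNT3A is a close relative that activates the same pathway.

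The cells came from a Wnt3-/- line (KO) and a Wnt3+/+ line (WT), both male, on a C57BL/6 background, and both with a transgene that reports Blimp1 as membrane-bound Venus. Embryonic stem cells kept in 2 kinase inhibitors with LIF were turned into epiblast-like cells and then grown as floating aggregates in serum replacement medium with LIF, which all groups share. The KO aggregates received BMP4 with WNT3A, WNT3A alone, BMP4 alone or no cytokine, and the WT aggregates WNT3A, BMP4 or no cytokine, with BMP4 at 500 ng/ml and WNT3A at 50 ng/ml. RNA was taken at 12, 24 and 36 h, and at 0 h before aggregation. Each combination of line, cytokine and time is 1 array, so no group has a replicate at any time, and the 3 times of an arm stood in for replicates in the tests. Each genotype is 1 line, and line and genotype cannot be told apart.

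The labels of 6 KO arrays contradict each other. The 3 arrays titled BMP4+WNT3A carry WNT3A in their array names, and the 3 titled WNT3A carry BMP4+WNT3A. Id1, which SMAD proteins switch on when BMP signals, read 186 to 1323 on the KO arrays titled BMP4+WNT3A and 5480 to 9345 on those titled WNT3A, against 5557 to 10156 on the KO BMP4 arrays. The level of Id1 thus goes against the titles and with the array names. Groups follow the titles here, and the word titled marks these 2 arms throughout.

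Wnt3 itself read 11.2 to 27.9 on the KO arrays and 10.4 to 146 on the WT arrays, so the KO signal overlaps the lower WT values. Array medians lay between 36.8 and 41.4. The Gapdh 3' to 5' signal ratio, which grows as RNA or its copy shortens, was 4.03 for WT WNT3A at 24 h, 2.68 for untreated KO at 24 h and 2.30 for untreated WT at 36 h, and 1.09 to 1.71 on the other 20 arrays. Of the 7 epiblast markers Pou5f1 read 5914 to 9542 over the 23 arrays. Fgf5 read 41.6 to 2020, Pou3f1 153 to 4608, Sox2 388 to 5442 and Dnmt3b 4040 to 12855. These 5 lay above the array median on 23 arrays. Foxd3, at 12.7 to 680, did so on 20, and Otx2, at 20.4 to 917, on 19. Of the 6 trophoblast markers Elf5 lay above the array median on 0 arrays, Cdx2 on 5, Ascl2 on 15, Tfap2c on 21, and Eomes and Krt8 on 23. Of the 5 fibroblast markers Col1a1 did so on 0 arrays, Dcn on 14, Col3a1 on 22, and Col1a2 and Thy1 on 23.

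The starts of these genes are shown because the members read together in several arms. RefSeq windows from 250 bases before to 50 bases after the gene start (GRCm38.p6) were at hand for 4 of the 5 genes, and the 3 of the transcription factors are printed here 5′ to 3′ on the strand of the gene. Nkx1-2 lies on the minus strand (chr7:132599588-132599887), Olig2 on the plus strand (chr16:91225300-91225599) and Gbx2 on the minus strand (chr1:89931127-89931426). Capitals mark the letters CTTTG, read as CAAAG on the other strand, or AGGTGT.

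Nkx1-2: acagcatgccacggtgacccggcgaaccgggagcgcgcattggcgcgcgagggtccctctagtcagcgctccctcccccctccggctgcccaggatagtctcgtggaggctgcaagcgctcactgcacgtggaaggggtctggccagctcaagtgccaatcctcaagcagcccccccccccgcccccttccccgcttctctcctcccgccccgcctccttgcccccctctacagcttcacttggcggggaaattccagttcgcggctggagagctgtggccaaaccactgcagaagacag

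Olig2: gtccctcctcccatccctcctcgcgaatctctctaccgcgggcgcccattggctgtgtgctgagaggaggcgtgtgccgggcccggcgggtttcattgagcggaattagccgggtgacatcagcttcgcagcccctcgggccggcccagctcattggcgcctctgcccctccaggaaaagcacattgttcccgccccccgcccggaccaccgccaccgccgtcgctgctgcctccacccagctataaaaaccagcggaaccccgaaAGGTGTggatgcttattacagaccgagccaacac

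Gbx2: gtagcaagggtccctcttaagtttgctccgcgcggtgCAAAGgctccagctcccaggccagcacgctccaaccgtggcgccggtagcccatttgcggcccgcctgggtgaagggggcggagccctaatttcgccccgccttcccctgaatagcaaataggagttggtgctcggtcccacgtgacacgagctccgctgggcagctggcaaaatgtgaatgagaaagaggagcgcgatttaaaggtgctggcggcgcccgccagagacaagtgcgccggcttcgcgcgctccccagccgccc

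The TCF/LEF letters CTTTGAA and CTTTGTT and the T-box letters AGGTGTGA, searched on both strands, were found in 0 of the 4 windows, and 5.14%, 5.85% and 1.28% of all 32851 windows hold them. The shorter core CTTTG, which 53.9% of all windows hold, was found once in the Gbx2 window, and the core AGGTGT, which 13.7% hold, once in the Olig2 window. The windows were rich in G and C, with 67.3% for Nkx1-2, 65.0% for Olig2, 64.7% for Gbx2 and 71.0% for Nt5e, where the median of all windows is 52.7%. A match is a description of letters and not a binding site. Olig2 and Olig1 are neighbours on chromosome 16, with 1 annotated lncRNA (Gm52261) and 0 protein-coding genes between them.

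Without cytokine, Nkx1-2 was the member with the widest swing. It read 21.6, 34.5, 54.2 and 32.7 at 0, 12, 24 and 36 h in KO cells, against 44.3, 48.2, 648 and 3769 in WT cells. Both lines were near or below the array median up to 12 h and stood apart by 24 h. At 36 h the normalized log2 signal of KO differed from that of WT by -6.26, and the WT change since 0 h was 5.94.

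Gbx2 took the same course at a lower level. It read 81.6, 59.3, 72.0 and 92.4 at 0, 12, 24 and 36 h in KO cells, against 72.5, 79.9, 290 and 1771 in WT cells. The KO values stayed between 59.3 and 92.4, and in WT most of the change came between 24 and 36 h. The normalized difference of KO from WT at 36 h was -3.93 log2.

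Nt5e read 36.5, 86.8, 120 and 40.8 in untreated KO cells, against 48.8, 97.0, 355 and 989 in untreated WT cells. Here KO cells also showed more signal at 12 and 24 h than at 0 h, and at 36 h they were back near the value at 0 h. The difference of KO from WT at 36 h was -4.05 log2.

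Olig1 and Olig2 differed from the other 3 genes in that they were well above the array median at 0 h and were lower in untreated KO cells by 36 h. Olig1 read 568, 592, 491 and 154 in KO cells, against 568, 699, 1710 and 3616 in WT cells. Olig2 read 298, 244, 163 and 39.9 in KO cells, against 347, 302, 798 and 1924 in WT cells. The 2 lines thus parted in both directions from a shared level, with changes of -1.93 for Olig1 and -2.65 log2 for Olig2 in KO from 0 to 36 h, and 2.46 and 2.16 log2 in WT. At 36 h the difference of KO from WT was -4.39 log2 for Olig1 and -5.03 log2 for Olig2.

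As a measure of how common such changes were, 61 genes (0.46%) were at least 4-fold higher in untreated KO at 36 h than at 0 h, 130 genes (0.981%) were so in untreated WT, and 61 genes (0.46%) were at least 4-fold lower in untreated KO than in untreated WT at 36 h. These choices fixed the members, so nothing is read from their place among them. The untreated WT array at 36 h is among the 3 arrays with a raised Gapdh ratio, and the part of that in the values at 36 h was not tested. At 24 h KO already read below WT for each of the 5 genes, with ratios of 2.68 on the KO array and 1.40 on the WT array. In bulk RNA, fewer cells that express a gene and less of its RNA per cell cannot be told apart.

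**Figure D1:**
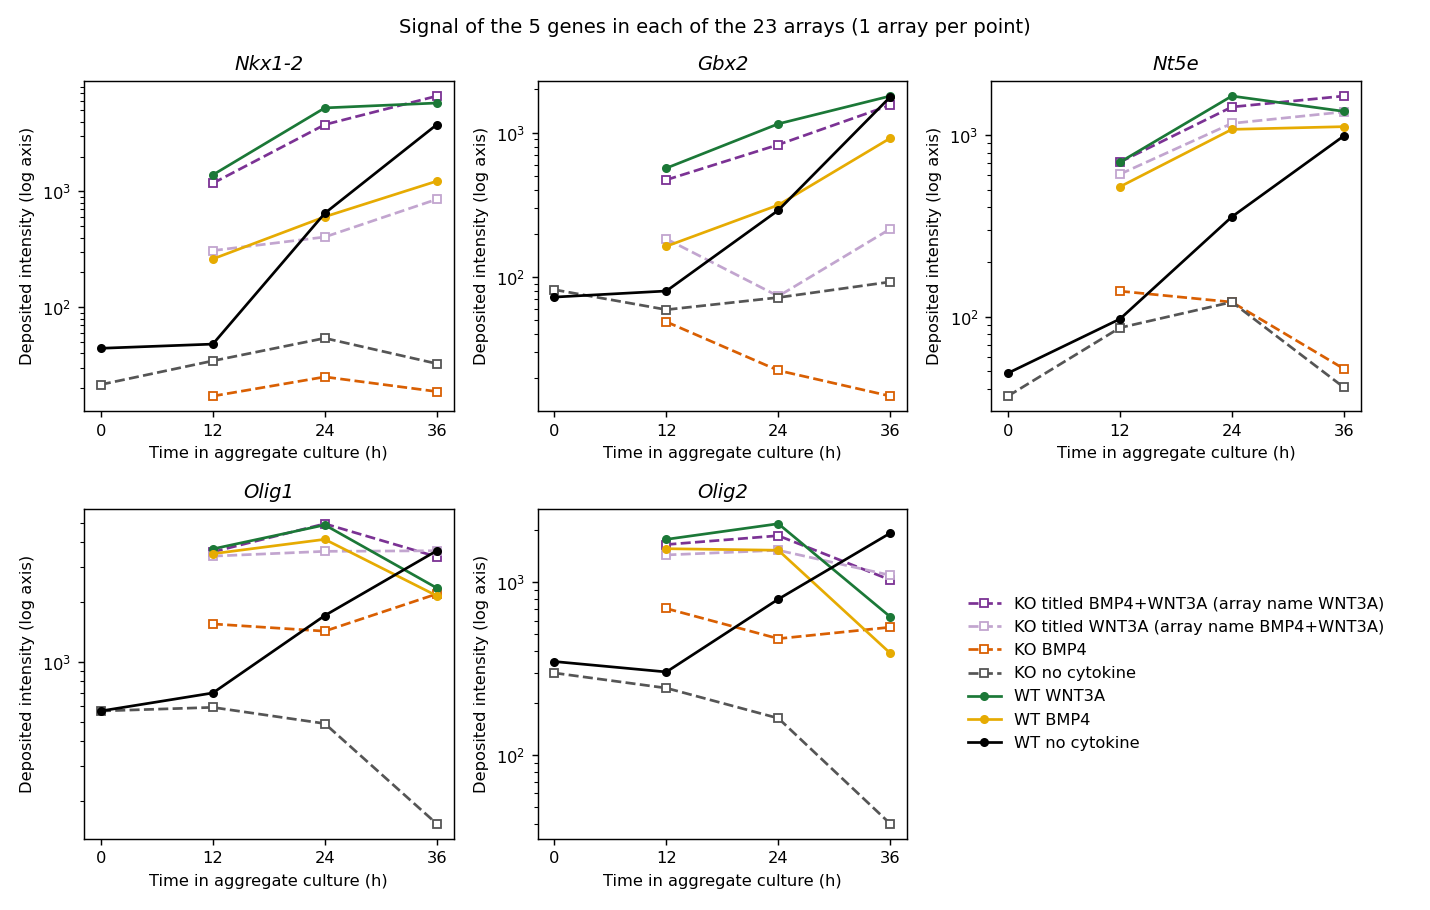
Deposited intensity (log axis) against time in aggregate culture (h) for each member, with 1 array per point, KO arms as dashed lines with open squares and WT arms as solid lines with filled circles. At 36 h the KO BMP4 arm lies at 18.8 for Nkx1-2, against 1226 in WT BMP4, while for Olig1 the same arms read 2195 and 2150.

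With BMP4, Nkx1-2, Gbx2 and Nt5e stayed low in KO cells and were high in WT cells. Nkx1-2 read 17.1, 25.1 and 18.8 at 12, 24 and 36 h in KO BMP4 cells, against 261, 605 and 1226 in WT BMP4 cells. Gbx2 read 48.8, 22.5 and 14.9 in KO BMP4 cells, against 163, 315 and 917 in WT BMP4 cells. Nt5e read 138, 120 and 51.6 in KO BMP4 cells, against 519, 1075 and 1113 in WT BMP4 cells. For these 3 genes the arms do not overlap.

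Over the 3 times the KO BMP4 arm differed from the WT BMP4 arm by -4.11 ± 0.36 log2 for Nkx1-2 (SE, limma adjusted p = 3.71e-05). For Gbx2 the difference was -3.20 ± 0.48 (adjusted p = 0.00192) and for Nt5e -2.99 ± 0.35 (adjusted p = 0.000294). The size of these differences depends on the offset of 16 added to the signal. With offsets of 1 and 64 it was -4.85 and -3.0 log2 for Nkx1-2, -3.82 and -2.28 for Gbx2, and -3.19 and -2.53 for Nt5e. Of all genes tested 7.42% were called in this comparison, against 3 of the 5 members, all 3 lower. At 36 h the difference was -5.06 log2 for Nkx1-2, -4.80 for Gbx2 and -3.99 for Nt5e, in each case further from 0 than at 12 h. Without the 24 h arrays the Gbx2 and Nt5e differences of -3.21 and -2.93 log2 missed the threshold (limma adjusted p = 0.116 and 0.0742). The slopes of the 2 arms were not told apart for any member. The slope of KO BMP4 minus that of WT BMP4 was -1.58 ± 0.35 log2 per 12 h for Gbx2 (limma adjusted p = 0.195), -1.06 ± 0.33 for Nt5e (adjusted p = 0.273) and -0.91 ± 0.31 for Nkx1-2 (adjusted p = 0.323). In that comparison 0 genes (0%) were called by limma, with 1393 of 13256 at an unadjusted p under 0.05. The 3 members among them are no more than that, and no difference of slope is read from them.

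Marker lists of other cell types differed between the same arms. The 4 differentiated neural markers summed to 1391 to 1624 on the KO BMP4 arrays, against 200 to 885 on the WT BMP4 arrays. The 6 trophoblast markers, of which Krt8 is also an epithelial keratin, summed to 1443 to 2935 in KO BMP4, against 2363 to 8227 in WT BMP4. The 7 epiblast markers summed to 28215 to 30267 in KO BMP4, against 12889 to 22021 in WT BMP4. The KO BMP4 arrays were thus higher in the neural and epiblast sums and mostly lower in the trophoblast sum. The neural sum was higher still at 0 h, at 2061 in KO and 1982 in WT. Without cytokine it was 1795 to 2439 in KO and 1836 to 2261 in WT. Tubb3, with a median of 867 over the 23 arrays, is the brightest neural marker. The 5 primitive endoderm markers (384 to 467 in KO BMP4, against 349 to 788 in WT BMP4) and the 5 fibroblast markers (520 to 579 in KO BMP4, against 401 to 533 in WT BMP4) overlapped. On the KO arrays titled BMP4+WNT3A the neural sum was 439 to 1133, the trophoblast sum 2039 to 10295 and the epiblast sum 14745 to 24288. On those titled WNT3A they were 286 to 730, 2363 to 6531 and 18095 to 22419. Both arms thus also lay below KO BMP4 in the neural and epiblast sums. A sum of signal does not count cells, and the part of other cell types in the values of the 5 genes was not tested.

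Olig1 and Olig2 did not follow the other 3 genes under BMP4. Olig1 read 1552, 1428 and 2195 in KO BMP4 cells, against 3492, 4125 and 2150 in WT BMP4 cells. Olig2 read 704, 471 and 549 in KO BMP4 cells, against 1563, 1531 and 388 in WT BMP4 cells. Both were lower in KO BMP4 at 12 and 24 h, and at 36 h Olig1 was level and Olig2 higher in KO. The mean differences of -0.88 ± 0.25 log2 for Olig1 (limma adjusted p = 0.0554, 95% interval -1.43 to -0.33) and -0.80 ± 0.34 for Olig2 (adjusted p = 0.189, interval -1.55 to -0.06) missed the threshold. The intervals leave room for a reduction, so the genes are not shown to be equal in the 2 arms.

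Set beside the untreated KO cells, Olig1 in KO BMP4 cells was higher at every time, with 1552, 1428 and 2195 against 592, 491 and 154. The same held for Olig2, with 704, 471 and 549 against 244, 163 and 39.9. Nkx1-2 was lower than in untreated KO cells at each time, with 17.1, 25.1 and 18.8 against 34.5, 54.2 and 32.7, and Gbx2 was too. In the cells without Wnt3, BMP4 thus went with a higher Olig signal and not with a higher Gbx2 signal, nor with more Nkx1-2 by its brightest probe set. On the KO BMP4 arrays that set lay below the array median. A dimmer Nkx1-2 set, 1422049_at, read 46.2, 32.4 and 22.2 with BMP4 against 43.4, 33.6 and 33.4. Nt5e read 138, 120 and 51.6 with BMP4 against 86.8, 120 and 40.8. These are single arrays, and the untreated ones chose the genes, so no test was made.

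The KO arms that received WNT3A by either label read above KO BMP4 for all 5 genes at each time. On the arrays titled BMP4+WNT3A, Nkx1-2 read 1176, 3769 and 6654 at 12, 24 and 36 h, against the 17.1 to 25.1 of KO BMP4. Gbx2 read 471, 826 and 1552 there, and Nt5e 709, 1428 and 1641. Olig1 read 3566, 4939 and 3373, and Olig2 1652, 1859 and 1031. Each of the 15 values lay above the KO BMP4 value of the same time, and 5 of 5 members were called higher, where 7.95% of all genes were called in either direction.

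Nkx1-2 differed most from KO BMP4, by 6.40 ± 0.36 log2 (limma adjusted p = 6.56e-07). Gbx2 was higher by 4.30 ± 0.48 (adjusted p = 0.000189) and Nt5e by 3.36 ± 0.35 (adjusted p = 0.000114). The Olig genes were higher by about 1 log2 unit, 1.15 ± 0.25 for Olig1 (adjusted p = 0.0159) and 1.30 ± 0.34 for Olig2 (adjusted p = 0.0363). Both Olig calls were lost without the 24 h arrays, at 0.85 and 0.97 log2 (adjusted p = 0.245 and 0.333), and without the 12 h arrays, at 1.18 and 1.43 (adjusted p = 0.114 and 0.137).

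On the KO arrays titled WNT3A, Nkx1-2 read 309, 405 and 855, Gbx2 184, 73.5 and 215, and Nt5e 609, 1160 and 1342. Olig1 read 3397, 3591 and 3616, and Olig2 1438, 1531 and 1098. Against KO BMP4, Nkx1-2 was higher by 3.75 ± 0.36 log2 (limma adjusted p = 9.72e-05) and Nt5e by 3.13 ± 0.35 (adjusted p = 0.000346). Gbx2 was higher by 1.92 ± 0.48 (adjusted p = 0.0436) and Olig1 by 1.02 ± 0.25 (adjusted p = 0.0416), while Olig2, at 1.21 ± 0.34, did not pass (adjusted p = 0.0715). That is 4 of 5 members called, where 4.46% of all genes were called, and without the 24 h arrays Nkx1-2 alone was. The Gbx2 call was lost under 11 of 17 other settings. All comparisons with KO BMP4 use the same 3 KO BMP4 arrays.

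The arm titled BMP4+WNT3A and the arm titled WNT3A differed in Nkx1-2, by 2.65 ± 0.36 log2 (limma adjusted p = 0.00666), 1 of 5 members where 0.309% of all genes were called. Gbx2 differed by 2.38 ± 0.48 without passing (adjusted p = 0.0781). Nt5e, Olig1 and Olig2 differed by 0.24, 0.13 and 0.09 log2, with 95% intervals of -0.52 to 0.99, -0.42 to 0.68 and -0.65 to 0.84. Without the 24 h arrays the Nkx1-2 difference of 2.40 log2 missed the threshold (adjusted p = 0.739). The direction rests on the titles. By the array names the arm with more Nkx1-2 is the one with WNT3A alone.

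WT WNT3A cells read 1389, 5257 and 5793 for Nkx1-2, against the 261, 605 and 1226 of WT BMP4 cells. The difference was 2.50 ± 0.36 log2 (limma adjusted p = 0.00647), and Nkx1-2 was the 1 member called, where 0.935% of all genes were called. Gbx2 read 568, 1152 and 1795 in WT WNT3A cells, against 163, 315 and 917 in WT BMP4 cells, a difference of 1.43 ± 0.48 that did not pass (adjusted p = 0.180). Without the WT WNT3A array at 24 h, the array of the highest Gapdh ratio, the Nkx1-2 difference was 2.23 log2 and missed the threshold (adjusted p = 0.0572).

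The remaining 3 members were close in the 2 WT cytokine arms. Nt5e read 709, 1641 and 1351 in WT WNT3A cells, against 519, 1075 and 1113 in WT BMP4 cells. Olig1 read 3692, 4871 and 2353 in WT WNT3A cells, against 3492, 4125 and 2150 in WT BMP4 cells. Olig2 read 1771, 2180 and 630 in WT WNT3A cells, against 1563, 1531 and 388 in WT BMP4 cells. The differences were 0.37, 0.14 and 0.40 log2, with 95% intervals of -0.39 to 1.13, -0.41 to 0.69 and -0.34 to 1.15, so changes of up to about 1 log2 unit remain possible. The slopes of these 2 arms were not told apart for any member, with 0 genes (0%) called by limma. At an unadjusted p under 0.05 were 931 of 13256, 0 members among them.

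Set against WT WNT3A cells, the KO arm titled BMP4+WNT3A was not told apart for any member. The differences were -0.20 log2 for Nkx1-2 (95% interval -0.98 to 0.57), -0.34 for Gbx2 (-1.39 to 0.71), 0.00 for Nt5e (-0.76 to 0.76), 0.13 for Olig1 (-0.42 to 0.68) and 0.10 for Olig2 (-0.65 to 0.84). In this comparison 0 genes (0%) were called by limma, with 376 at an unadjusted p under 0.05. The KO arm titled WNT3A was lower than WT WNT3A for Nkx1-2, by a difference of -2.85 ± 0.36 log2 (adjusted p = 0.00310), and for Gbx2, by -2.72 ± 0.48 (adjusted p = 0.0324), where 0.543% of all genes were called. Its Nt5e, Olig1 and Olig2 differed from WT WNT3A by -0.24, 0.00 and 0.01 log2 and were not called. Without the WT WNT3A array at 24 h the Gbx2 call was lost (-2.50 log2, adjusted p = 0.176), and without all 24 h arrays both were. Which KO arm has the cytokine of WT WNT3A rests on the titles. By the array names, with which Id1 goes, the arm titled WNT3A received BMP4 too, and the arm titled BMP4+WNT3A received WNT3A alone. For the arm titled WNT3A, a difference of line and one of cytokine thus cannot be told apart.

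**Figure D2:**
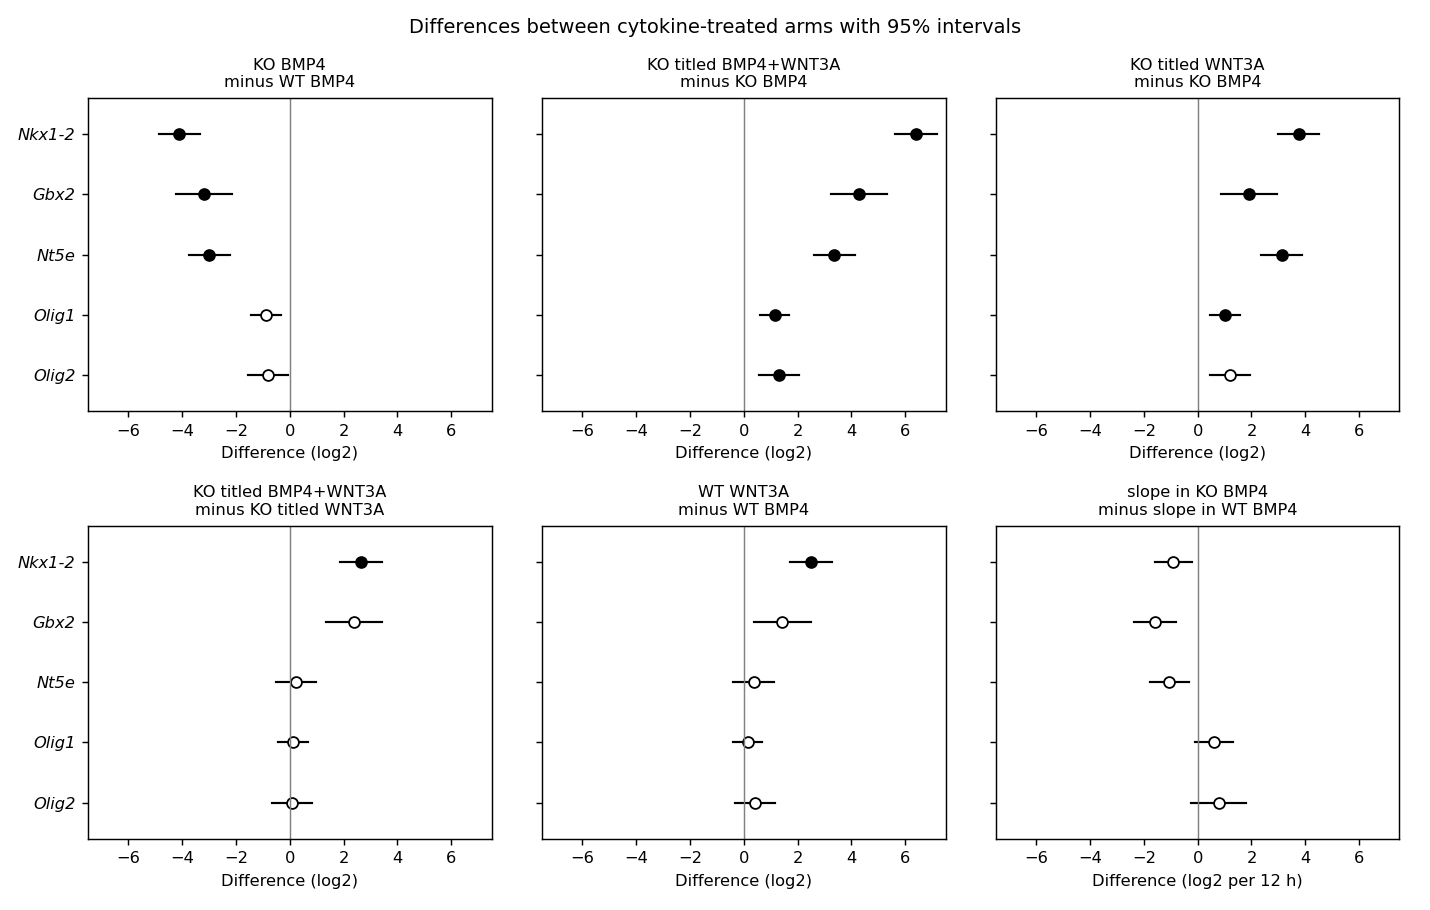
Mean difference over 12, 24 and 36 h (log2, or log2 per 12 h for the slopes) with its 95% interval for each member, filled where the limma adjusted p was under 0.05. Nkx1-2 is filled in all 5 panels of arm differences, Nt5e and Gbx2 wherever KO BMP4 enters as an arm mean, and no member in the panel of slopes.

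With cytokine, a change from 12 to 36 h was called for 2 of 5 members, in opposite directions. Over the 5 cytokine arms Nkx1-2 was higher at 36 h than at 12 h by 1.55 ± 0.28 log2 (limma adjusted p = 0.00124). Olig2 was lower at 36 h by a difference of -1.14 ± 0.27 (adjusted p = 0.00607). Gbx2 at 0.87 ± 0.37 (adjusted p = 0.0919), Nt5e at 0.49 ± 0.27 (adjusted p = 0.183) and Olig1 at -0.28 ± 0.20 (adjusted p = 0.285) did not pass. Time moved many genes, with 33.5% of all genes called, so 2 of 5 members is near the background. Without the 6 KO arrays of contradictory labels the Nkx1-2 value was 1.32 log2 and missed the threshold (adjusted p = 0.0520). In a fit of all 21 arrays the Olig2 value was -0.8 log2 and missed it too (adjusted p = 0.119). Gbx2 passed in that fit, which includes the untreated arrays that chose the genes.

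Within single arms, Nkx1-2 climbed by 1.23 ± 0.22 log2 per 12 h in the KO arm titled BMP4+WNT3A (limma adjusted p = 0.0133), where 4.96% of genes were called. It climbed by 1.00 ± 0.22 in WT WNT3A (adjusted p = 0.0285), where 5.48% were called, and by 0.95 ± 0.22 in WT BMP4 (adjusted p = 0.0323), where 7.63% were called. The course in WT WNT3A was not even, with 10.46, 12.39 and 12.46 normalized log2 at 12, 24 and 36 h. Its 24 h array is the one of the highest Gapdh ratio. In WT BMP4 Gbx2 climbed too, by 1.06 ± 0.25 (adjusted p = 0.0337). In KO BMP4, where 0.392% of genes were called, and in the KO arm titled WNT3A, where 0.845% were, 0 members had a called slope. The slope of Nkx1-2 was 0.04 ± 0.22 in KO BMP4 and 0.67 ± 0.22 in the arm titled WNT3A (adjusted p = 0.965 and 0.197).

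At 12 h Olig1 read 3397 to 3692 and Olig2 1438 to 1771 in the cytokine arms other than KO BMP4. The 1552 and 704 of KO BMP4 lay between these and the 592 and 244 of untreated KO. In WT WNT3A cells Olig2 read 2180 at 24 h and 630 at 36 h, and in WT BMP4 cells 1531 and 388. Untreated WT cells had 798 and 1924 at the same times. For Olig2 the cytokine-treated WT cells were thus above untreated WT cells at 24 h and below them at 36 h. For Nkx1-2, WT WNT3A read 5793 and WT BMP4 1226 at 36 h, against 3769 in untreated WT. No test was made against the untreated arrays.

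Across arms the order of the mean log2 signal was close for Nkx1-2 and Gbx2. For Nkx1-2 it ran from WT WNT3A at 11.77 ± 1.14 (SD over the 3 times) through the KO arm titled BMP4+WNT3A at 11.57 ± 1.26, WT BMP4 at 9.27 ± 0.95, untreated WT at 9.11 ± 2.91, the KO arm titled WNT3A at 8.92 ± 0.69 and untreated KO at 5.81 ± 0.28 to KO BMP4 at 5.17 ± 0.15. Gbx2 took the same 7 places in the same order. For Nkx1-2, neighbours within the first pair and within the middle 3 arms lay closer than their spread. For Olig1 the first 4 arms lay between 11.63 and 11.90, KO BMP4 at 10.75 ± 0.28 was near untreated WT at 10.72 ± 1.12, and untreated KO was last at 8.56 ± 1.02. KO BMP4 thus stood last for Nkx1-2 and Gbx2, while untreated KO stood last for Olig1, Olig2 and Nt5e.

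Over the 23 arrays the 2 closest pairs were Olig1 with Olig2 and Nkx1-2 with Gbx2, and Nt5e was closest to Nkx1-2. The points share lines, times and arms and are not independent, and the untreated arrays that chose the genes are among them. Olig1 and Olig2 had a Pearson r of 0.951, and Nkx1-2 and Gbx2 of 0.949. Nt5e had 0.915 with Nkx1-2, 0.843 with Olig1, 0.799 with Gbx2 and 0.753 with Olig2. The pairs of Olig1 or Olig2 with Nkx1-2 or Gbx2 had 0.490 to 0.717. Over the 15 cytokine-treated arrays r was 0.899 for the Olig pair and 0.958 for Nkx1-2 and Gbx2, and Nt5e had 0.901 with Nkx1-2, 0.702 with Olig1, 0.833 with Gbx2 and 0.499 with Olig2.

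The genes of most similar course were taken by Pearson r over the same 23 arrays. For Nkx1-2 these were Fst, the activin antagonist follistatin (0.974), Il17rd, a dampener of FGF signalling (0.968), and Epha1, an ephrin receptor (0.959). For Gbx2 they were Fst (0.937), Zyx, a focal adhesion protein (0.928), and Lhpp, a phosphatase (0.924). For Nt5e they were Rtl8c (0.972), the growth factor gene Fgf8 (0.968), and Porcn, which modifies WNT ligands for secretion (0.962). Fst is thus shared by the first 2 genes. For Olig1 they were Steap1 (0.898), Porcn (0.880) and the fatty acid ligase Acsl3 (0.874), and for Olig2 Acsl3 (0.855), the nucleoside transporter Slc29a1 (0.836) and Grrp1 (0.833). Porcn stood near both Nt5e and Olig1. Fst at 36 h read 78.2 in KO BMP4 cells against 3717 in WT BMP4 cells, and 138 in untreated KO cells against 4300 in untreated WT cells. Acsl3 had a smaller range at 36 h, with 1380 in KO BMP4 cells against 1859 in WT BMP4 cells.

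**Figure D3:**
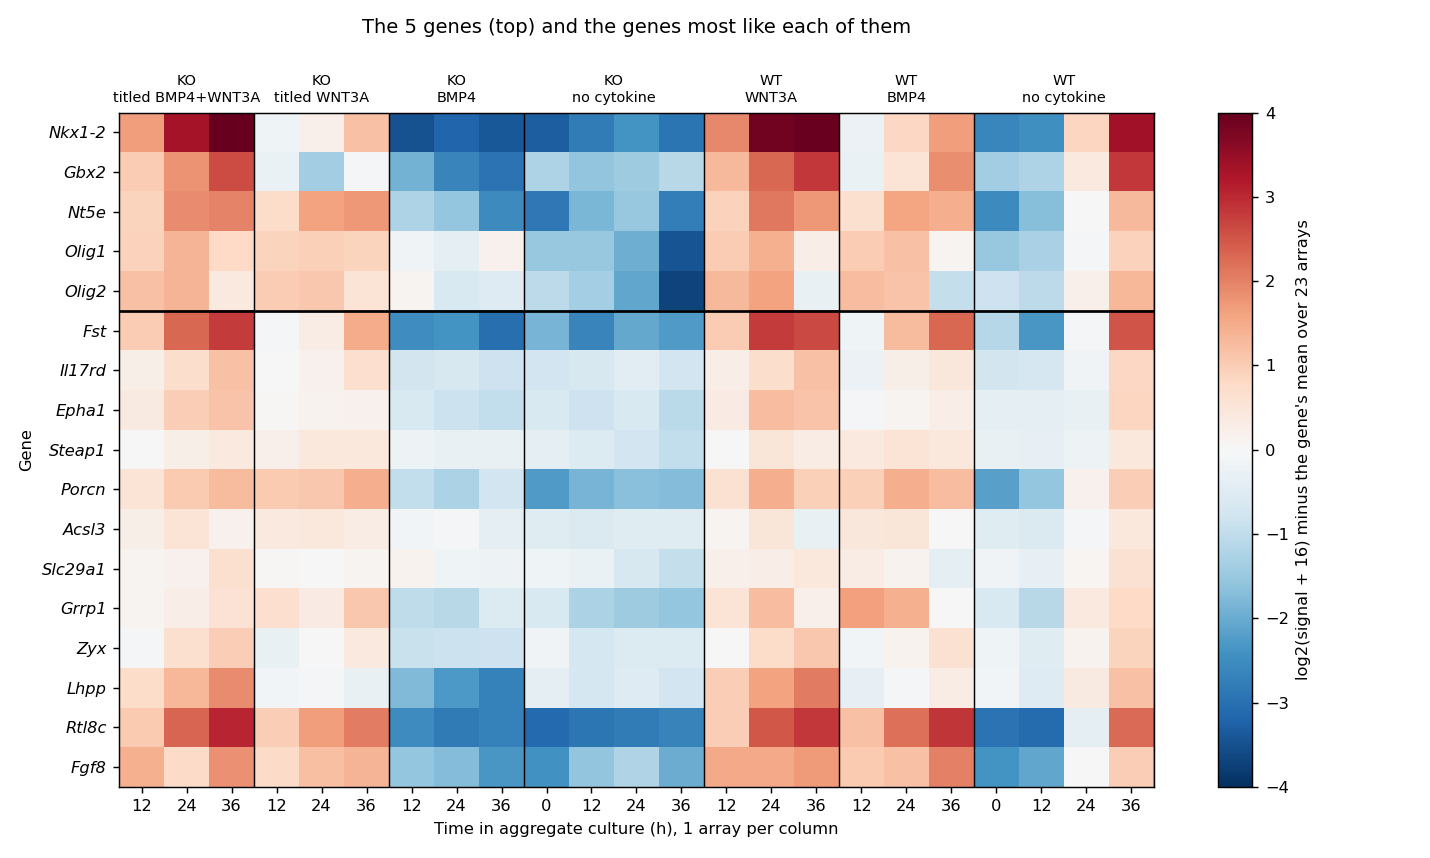
Normalized log2(signal + 16) of each gene minus its mean over the 23 arrays, with the 5 members above the line and the genes most like them below it, 1 array per column, KO arms left and WT arms right. Nkx1-2, Gbx2, Fst and Rtl8c are low throughout KO BMP4 and untreated KO, and Olig1 and Olig2 are near their means in KO BMP4.

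Genes of the same settings gave the surroundings of these changes. Of 15 tested genes of the caudal epiblast, 9 were lower and 1 higher in KO BMP4 than in WT BMP4, where 7.42% of all genes were called, with a median of -1.72 log2 against -0.01 over all genes. Sp5, a direct WNT target, differed by -5.52, Tnfrsf19, a receptor gene that responds to WNT, by -4.99, Wnt8a, a WNT ligand, by -4.72, and Fgf8 by -3.28, while Sox2, a pluripotency and neural factor, was the gene that was higher, by 2.20. Cdx2, at -1.11, did not pass (limma adjusted p = 0.386). In the KO arm titled BMP4+WNT3A against KO BMP4, 8 of the 15 were higher and 0 lower, where 7.95% of all genes were called, with a median of 1.34 log2 against -0.01 over all genes. In the arm titled WNT3A against KO BMP4, 7 were higher and 0 lower, where 4.46% of all genes were called. The median there was 1.22 log2 against -0.002 over all genes. Cdx1 and Hoxb1 were called only in the arm titled BMP4+WNT3A, and Fgf17 only in the arm titled WNT3A. These counts describe the list and carry no test of it.

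Of 11 tested partners of Gbx2 at the border of midbrain and hindbrain, Otx2, its opponent there, was the 1 that was higher in KO BMP4 than in WT BMP4, by 3.06 ± 0.48 log2 (limma adjusted p = 0.00265). Otx2 was lower in the KO arm titled BMP4+WNT3A than in KO BMP4, by a difference of -2.94 ± 0.48 (adjusted p = 0.00283), and also at 36 h against 12 h over the 5 arms (-1.73, adjusted p = 0.00387). In the arm titled WNT3A it was lower than in KO BMP4 as well, by a difference of -2.24 ± 0.48 (adjusted p = 0.0214). Otx2 also belongs to the epiblast markers. Fgf8, Fgf17 and Meis2 were the 3 that were lower in KO BMP4, by differences of -3.28, -1.71 and -1.99 log2. Fgf8 and Fgf17 are also counted among the caudal epiblast genes above. That is 4 of 11 called, beside 7.42% of all genes, and the median of the 11 was -0.22 log2 against -0.01 over all genes.

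Of 9 tested partners of the Olig genes in the ventral neural tube, 2 were called in KO BMP4 against WT BMP4, where 7.42% of all genes were, and both were higher. Pax6, a neural transcription factor, differed by 1.80 and Sox1, an early neural factor, by 1.11. In the KO arm titled BMP4+WNT3A against KO BMP4, Pax6 differed by -1.69 (limma adjusted p = 0.000406) and Gli1, a target of hedgehog signalling, by 0.49, while the Olig genes were higher there. In the arm titled WNT3A against KO BMP4, Pax6 differed by -1.66 (adjusted p = 0.000813), and Gli1, at 0.30, did not pass (adjusted p = 0.245). Olig3, the other Olig gene, read 2.16 to 43.7 over all arrays, and Gbx1, the other Gbx gene, 2.31 to 48.2.

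Of 12 tested genes of adenosine and nucleotide handling at the cell surface or beyond, 2 were higher and 1 lower in KO BMP4 than in WT BMP4, beside 7.42% of all genes called. Enpp3, an ectonucleotide pyrophosphatase, was higher by 3.47 log2 and Adk, adenosine kinase, by 0.66, while Alpl, tissue non-specific alkaline phosphatase, differed by -1.32. The median of the 12 was -0.05 log2 against -0.01 over all genes, where Nt5e differed by -2.99. Of 12 tested WNT feedback and target genes, 6 were lower and 0 higher in KO BMP4, beside the same 7.42%, Axin2 by a difference of -3.49 and Lef1 by -1.23 among them. Sp5 and Tnfrsf19 are also among the 6 and were counted with the caudal genes above, so the lists are not separate. In WT WNT3A against WT BMP4, 0 of these 12 and 0 of the 15 caudal genes were called, which is near the 0.935% of all genes.

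The probe sets of a gene did not always carry the same signal. For Nkx1-2, 1422050_at is the brightest, 1422049_at follows it with a narrower range of 22.2 to 584 (r = 0.926), and 1426177_a_at stayed between 41.4 and 108 on all arrays (r = 0.164). At 36 h 1422049_at read 22.2 in KO BMP4 cells against 140 in WT BMP4 cells, and its mean difference of -0.97 ± 0.33 log2 was not called (limma adjusted p = 0.115). This set was called higher than in KO BMP4 in the arm titled BMP4+WNT3A (2.86 ± 0.33, adjusted p = 0.000319), but not in the arm titled WNT3A (0.63 ± 0.33, adjusted p = 0.378). It was called in WT WNT3A against WT BMP4 and between the titled arms (adjusted p = 0.0291 and 0.0180). Its change from 12 to 36 h (0.55 ± 0.26, adjusted p = 0.130) and its slopes in WT BMP4 and WT WNT3A (adjusted p = 0.079 and 0.129) were not called. For Nt5e, 1422974_at read 1.00 to 5.58 and 1459023_at 3.48 to 22.0, above the array median on 0 arrays, and neither was tested. In all 7 of the 9 probe sets passed the filter on low signal, and the brightest set of each gene was above the array median on 17 arrays for Nkx1-2, 21 for Gbx2, 22 for Nt5e and 23 for Olig1 and Olig2. Nkx1-2 on the 3 KO BMP4 arrays, and Gbx2 on those at 24 and 36 h, lay below the array median, so the differences there depend on the offset added to the signal.

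**Figure D4:**
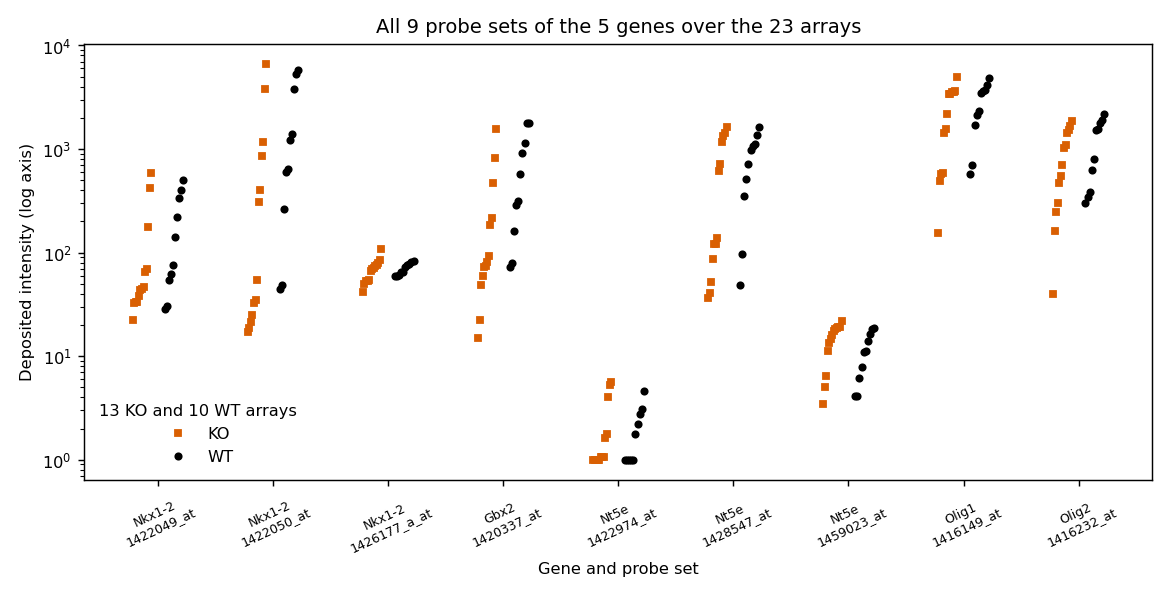
Deposited intensity (log axis) of each of the 9 probe sets on the 13 KO arrays (squares, left) and the 10 WT arrays (circles, right), sorted within each line. Of the Nkx1-2 sets 1426177_a_at stays between 41.4 and 108, and of the Nt5e sets only 1428547_at goes above 22.0.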

How the data were processed

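Each array has 1 deposited linear intensity for a probe set, and the authors' method behind it is not given in the sources used. All 207 values of the 9 probe sets lie on steps of 0.01 in log2, with a floor at 1. Per the labels, cDNA was amplified before biotin labelling.

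An offset of 16 was added, log2 values were quantile normalized, and each gene was taken from its brightest probe set, if above the array median on at least 3 arrays (13256 genes). limma 3.58.1 under R 4.3.3 fitted 15 arrays with arm and time (8 residual degrees of freedom), and a second model a linear course per arm (5). Benjamini-Hochberg adjusted p under 0.05 over all genes was a call. The steps were tested on simulated data.

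The members and lists were chosen with earlier results of these data known. Genes named are the members, the 3 most correlated genes of each (clone or locus symbols skipped), list genes and checks of the labels. The cores CTTTG and AGGTGT were added after the promoters were seen. Alternatives are given in the closing section. Unnamed and multi-gene probe sets were not used.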

Additional observations from a re-analysis of the deposited data

How the results depend on the processing

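Nkx1-2 was called lower in KO BMP4 than in WT BMP4 under all 17 alternatives (-4.85 to -1.75 log2), and higher in both titled arms than in KO BMP4 under all 17. These fits score Nkx1-2 by its brightest probe set or by the mean of its sets. By itself, 1422049_at was called neither lower in KO BMP4 than in WT BMP4 nor higher in the arm titled WNT3A than in KO BMP4. Gbx2 and Nt5e lost their calls in KO BMP4 against WT BMP4 in 2 of 17 each. Against KO BMP4, both kept their calls in the arm titled BMP4+WNT3A under all 17. In the arm titled WNT3A Gbx2 lost its call in 11 of 17 and Nt5e in 1. The number of called members changed as follows. For KO BMP4 against WT BMP4 (3) it was 5 with array weights, 1 in a fit of only the compared arrays, and 1 to 5 when a time was left out. For WT WNT3A against WT BMP4 (1) it was 0 with all 21 arrays, 2 with only the compared arrays, 0 without the WT WNT3A array at 24 h, 0 without the 6 KO arrays of contradictory labels, and 0 without 24 h. For the arm titled BMP4+WNT3A against KO BMP4 (5) it was 3 with all 21 arrays and 3 without 12 h or without 24 h. For the arm titled WNT3A against KO BMP4 (4) it was 2 with no filter, 2 with the mean of probe sets, 2 with no trend, 2 with all 21 arrays, and 1 without 24 h. Between the titled arms (1) it was 2 with array weights, 0 with all 21 arrays, and 0 to 2 when a time was left out. Exchanging the labels turned Nkx1-2 there to -2.65 log2, by construction. It also gave 2 called members for the arm titled BMP4+WNT3A against WT WNT3A (0) and 0 for the arm titled WNT3A against WT WNT3A (2). This last comparison had 1 with an offset of 1, 1 with no filter, 0 with all 21 arrays, 1 with only the compared arrays, 1 without the WT WNT3A array at 24 h, and 0 to 2 when a time was left out. For time (2) it was 4 with array weights and 1 without the 6 KO arrays. For the slope of KO BMP4 minus WT BMP4 (0) it was 1 with only the compared arrays and 1 with a common quadratic term. Of 25 slopes within arms (4) it was 1 with no filter, 2 with the mean of probe sets and 10 with a common quadratic term. Fits of fewer arrays have fewer degrees of freedom, and for the other changes the cause was not tested. Slopes without a time leave no residual degrees of freedom and were not run. Time is a block in the model of arm means, and the labels give no replicate numbers for another pairing. Calls over all genes (or all probe sets, where each was fitted by itself) moved with the settings too. They ranged from 84 to 2368 for KO BMP4 against WT BMP4 (984), with 2368 under array weights, 117 with only the compared arrays and 84 without 24 h. They ranged from 3 to 321 for WT WNT3A against WT BMP4 (124), 107 to 2419 for the arm titled BMP4+WNT3A against KO BMP4 (1054), 39 to 1594 for the arm titled WNT3A against KO BMP4 (591), 0 to 351 between the titled arms (41), 0 to 72 and 0 to 169 for the arms titled BMP4+WNT3A (0) and WNT3A (72) against WT WNT3A, 1525 to 6602 for time (4436) and 0 to 107 for the slope difference of KO BMP4 (0). For the slopes within arms they ranged from 562 to 1994 in WT BMP4 (1011), 520 to 1391 in WT WNT3A (727) and 24 to 191 in KO BMP4 (52). In the KO arms titled BMP4+WNT3A (657) and WNT3A (112) they ranged from 112 to 1289 and 40 to 657. A change in the members' count is read against these calls over all genes. Without replicates or detection calls, low intensity may or may not mean absent RNA.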
